A study of Mus musculus with 16 samples.

Results

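The 10 genes described here encode the core of MHC class I antigen presentation: the heavy chains H2-K1, H2-D1, H2-T23, H2-Q6 and H2-Q7, the light chain B2m, the peptide transporter subunits Tap1 and Tap2, the loading factor Tapbp and the proteasome subunit Psmb8. They were taken by gene symbol from a table of 25239 genes measured by bulk RNA-seq in mouse bone marrow hematopoietic stem cells (HSCs). No cutoff on any value was used, but the set was chosen with earlier results of these data known. The 16 libraries form 6 groups by Selp genotype (wild type, WT, or knockout, KO) and by condition. Selp encodes P-selectin, an adhesion receptor whose ligand is PSGL-1, and the mice were 4 to 6 months old. Fresh cells, sequenced without culture, gave 3 WT and 2 KO libraries. Vehicle cultures gave 3 WT and 3 KO libraries, and cultures that received PSGL-1 at 125 ng/mL for 24 hours gave 2 WT and 3 KO libraries. All cultured cells shared StemSpan medium with penicillin, streptomycin, 10% FCS, SCF at 300 ng/mL, IL-11 at 20 ng/mL and Flt-3 ligand at 1 ng/mL. The duration of the vehicle culture, the strain, the sex, the way the Selp allele was inactivated and the number of mice behind a library are details that no source used here gives.

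MHC class I molecules display peptides from inside the cell to cytotoxic T cells and to receptors of natural killer cells. Proteasomes cut proteins into peptides, the TAP transporter carries these into the endoplasmic reticulum, tapasin (the product of Tapbp) helps to load them, and the loaded heavy chain reaches the surface together with beta-2-microglobulin. Nearly all nucleated cells, HSCs included, carry class I molecules, and interferons raise the transcription of this set of genes through promoter boxes bound by IRF, NF-kappa B and NLRC5-containing complexes.

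Library totals ran from 12590539 to 24690824 counts. As a check of the labels, Selp measured 16.8 to 183 CPM (counts scaled to the library total) in WT libraries and 0 to 12.4 CPM in KO libraries, so the ranges did not overlap. The library WT PSGL-1 replicate 1 was sparse, with 9035 detected genes against 11101 to 13480 in the others, and results that it changes are given with and without it. All 12 HSC markers examined were expressed, with a summed level of 2557 to 3205 CPM in fresh cells and 1992 to 2999 CPM in vehicle cultures. Of other cell types, the B-cell genes Ms4a1, Ebf1 and Jchain, the T and natural killer cell genes Cd3e, Cd3d, Cd3g, Cd8a and Ncr1, the neutrophil gene Ly6g, the dendritic cell gene Itgax and the globins Hba-a1, Hba-a2, Hbb-bs and Hbb-bt had 0 counts in every library. Near-identical gene copies such as Hba-a1 and Hba-a2 can lose reads in counting. Other genes of these lists were detected, among them Cd79b in 16 libraries (a mean of 49.9 CPM in WT fresh cells), and with means in the same cells Lyz2 (454 CPM), Prtn3 (261 CPM), Nkg7 (71.4 CPM), Klf1 (44.0 CPM) and Epor (53.4 CPM).

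In fresh WT cells, levels scaled to the length of each gene's exons put B2m first at 2546 ± 275 CPM per kilobase (SD, n = 3), then H2-K1 at 952 ± 222 CPM per kilobase and H2-D1 at 486 CPM per kilobase. H2-T23 followed at 317 CPM per kilobase, and its range overlapped that of H2-D1. H2-Q6, Psmb8, Tap2 and Tapbp lay between 148 and 160.5 CPM per kilobase with overlapping ranges, and Tap1 was lowest of the detected members at 75.2 CPM per kilobase. KO fresh cells began with the same 4 genes, led by B2m at 3045 and H2-K1 at 1078 CPM per kilobase. After vehicle culture H2-T23 stood in the sixth place in both genotypes, at 80.1 CPM per kilobase in WT and 76.0 CPM per kilobase in KO. In WT vehicle cultures its range overlapped those of Tapbp and Tap2, its neighbours in that order.

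H2-Q7, a nonclassical heavy chain of the Qa-2 family at chr17:35439140-35443773 (GRCm38.p6), had 0 counts in all 16 libraries. A limit of 3 counts corresponds to 0.122 to 0.238 CPM per library, and covers counting error only. Of the transcript sequence of H2-Q7, 12% of 100-base and 26.4% of 50-base stretches also occur in other genes; the read length is not among the details given. Its neighbours H2-Q8 and H2-Q9 also stood at 0, and no source used here says how the authors' counting treated reads with several matches. The 0 therefore describes the counted reads, and the other 9 members passed the filter on low counts and were tested.

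Vehicle culture against fresh cells was the comparison in which class I genes changed. Averaged over both genotypes, 5 of the 9 tested members fell (H2-K1, H2-D1, H2-T23, H2-Q6 and B2m), against 2.3% of all 14124 tested genes called lower. Without the sparse library 6 fell, Tap2 included, against 4.23% of all genes. All 9 had negative log2 fold changes with a median of -0.88, against -0.07 over all genes tested. In WT alone 2 members fell, H2-T23 and H2-Q6 (0.404% of all genes), and in KO alone 4 did, namely H2-K1, H2-T23, H2-Q6 and B2m (0.538% of all genes). No member had a culture response that differed between genotypes by the interaction term of edgeR's quasi-likelihood test. There were 0 members at an unadjusted p under 0.05, and 0 adjusted in DESeq2 and in limma. For this term edgeR and limma called 0% of all tested genes, and DESeq2 called 0.489%. All vehicle libraries lay below all fresh ones of their genotype for 7 of 9 members in WT (14.8% of all tested genes) and for 7 of 9 in KO (20.3%). Over both genotypes pooled this held for 4 members, H2-K1, H2-T23, H2-Q6 and B2m (5.72% of all tested genes). Culture, its medium and the time since isolation cannot be told apart in this contrast. In bulk RNA, fewer cells of a type and less RNA per cell cannot be told apart either.

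**Figure D1:**
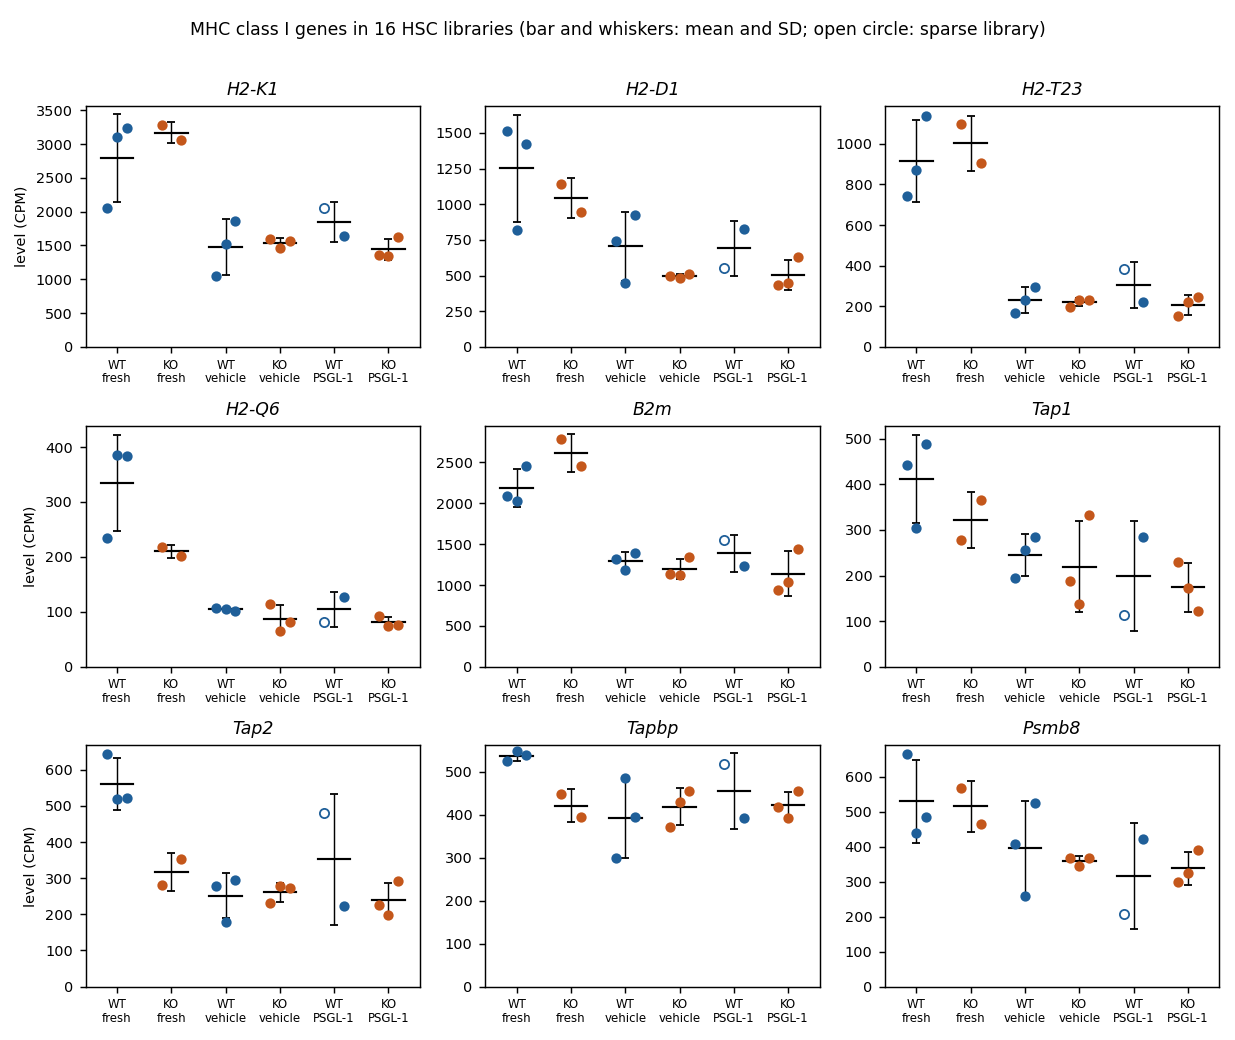
Levels of the 9 detected class I members in CPM (vertical axes, each from 0) in the 6 groups, with 1 point per library (blue WT, orange KO, open circle for the sparse library WT PSGL-1 replicate 1), and horizontal bars and whiskers for the mean and SD. The fresh libraries of H2-T23 sit between 741 and 1138 CPM, above all 11 cultured libraries.

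The WT count of 2 rests on the fit: it was 5 with DESeq2 (2.66% of all genes called lower), 5 with limma (2.1%) and 4 without the sparse library (1.04%), when H2-K1 (adjusted p = 0.0428) and Tap2 (adjusted p = 0.0135) joined. The KO count of 4 was 5 with DESeq2, H2-D1 included (2.2% of all genes called lower). It was 1, H2-T23, without KO fresh replicate 1 (0.14% of all genes), and 2 without KO vehicle replicate 2 (0.284%) or replicate 3 (0.235%). The averaged count lay between 4 and 6 under every alternative run, with 1.08 to 7.29% of all genes called lower.

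H2-T23 encodes Qa-1, a nonclassical heavy chain whose peptides are read by the inhibitory receptor CD94/NKG2A, and lies at chr17:36029977-36032701. In fresh cells it measured 741, 869 and 1138 CPM in WT and 1098 and 906 CPM in KO. Vehicle cultures gave 166, 233 and 295 CPM in WT and 197, 233 and 229 CPM in KO. Cultures with PSGL-1 gave 385 and 223 CPM in WT and 152, 219 and 245 CPM in KO. Every cultured library was thus below every fresh one, a separation met by 3 of the 9 tested members and by 3.46% of all tested genes. The log2 fold change in culture was -1.88 ± 0.28 (SE) in WT (adjusted p = 0.00227) and -2.17 ± 0.30 in KO (adjusted p = 0.00139). Averaged over genotypes it was -2.02 ± 0.20 (adjusted p = 3.25e-05), a level of 24.6% of that in fresh cells. This call held under each of the 20 alternatives, with log2 values between -2.16 and -1.92.

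H2-Q6, a further heavy chain of the Qa-2 family (chr17:35424850-35430055), also fell in both genotypes. WT libraries measured 235, 385 and 384 CPM when fresh and 106, 106 and 102 CPM after vehicle culture. KO libraries measured 218 and 202 CPM when fresh and 114, 64.6 and 80.9 CPM after vehicle culture. Vehicle and fresh values did not overlap in either genotype. The log2 fold change was -1.58 ± 0.27 in WT (adjusted p = 0.00729), -1.25 ± 0.29 in KO (adjusted p = 0.0391) and -1.42 ± 0.20 averaged (adjusted p = 0.000434). In KO the call was lost under 7 of 14 alternatives, with an adjusted p of up to 0.28, and in WT it was kept under all 15. Of the transcript sequence of H2-Q6, 10.8% of 100-base stretches are shared with other genes, 8.4% with H2-Q7, and 32% of 50-base stretches are shared, so its counts may hold reads of close copies.

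H2-K1 and H2-D1 encode the classical heavy chains, which present peptides to cytotoxic T cells. H2-K1 (chr17:33996012-34000619) measured 2049, 3097 and 3241 CPM in fresh WT and 3276 and 3060 CPM in fresh KO libraries. After vehicle culture it measured 1045, 1523 and 1868 CPM in WT and 1595, 1458 and 1572 CPM in KO. No vehicle library reached a fresh one, while WT PSGL-1 replicate 1, the sparse library, lay at 2055 CPM, just above WT fresh replicate 1. H2-K1 fell by 1.01 ± 0.23 on the log2 scale in KO (adjusted p = 0.0391; lost under 5 of 14 alternatives, with an adjusted p of up to 0.273) and had a log2 fold change of -0.81 ± 0.21 in WT (adjusted p = 0.0785). The average over genotypes was -0.91 ± 0.16 (adjusted p = 0.00233), a level of 53.1% of that in fresh cells.

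H2-D1 (chr17:35263094-35267497) measured 1513, 823 and 1425 CPM in fresh WT and 1141 and 944 CPM in fresh KO libraries. Vehicle cultures gave 740, 448 and 928 CPM in WT and 495, 486 and 511 CPM in KO. In WT the groups overlapped, since WT fresh replicate 2 lay below WT vehicle replicate 3. The averaged log2 fold change of -0.89 ± 0.21 passed the test (adjusted p = 0.0209), and neither genotype did alone in edgeR (adjusted p = 0.304 in WT and 0.126 in KO). DESeq2 called H2-D1 lower in KO (-1.12, adjusted p = 0.0122). The averaged call was lost without WT fresh replicate 1 (adjusted p = 0.0542), WT fresh replicate 3 (0.0528), KO fresh replicate 1 (0.0878), KO vehicle replicate 1 (0.0514) or KO vehicle replicate 2 (0.0507).

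The 5 heavy chain genes together took 5349 ± 632 CPM in fresh cells (SD, n = 5) and 2433 ± 394 CPM in vehicle cultures (n = 6). Adding every other H2 class I gene of the table, so that reads assigned to the wrong copy stay in the sum, gave 5625 ± 658 and 2541 ± 407 CPM. The lowest fresh sum of 4781 CPM lay above the highest vehicle sum of 3331 CPM. The make-up of the sum also differed. H2-T23 took 16.3 to 19.2% of the heavy chain member counts in fresh libraries and 8.09 to 10.4% in vehicle libraries, with no overlap. Of single genes tested, 5.72% had levels with vehicle below fresh and no overlap over both genotypes pooled. The share of H2-K1 was 54.9 ± 6.2% in fresh and 62.1 ± 6.3% in vehicle libraries, with overlapping ranges.

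B2m (chr2:122147687-122153082) encodes the light chain that all these heavy chains share. It measured 2084, 2024 and 2460 CPM in fresh WT, and 2784 and 2453 CPM in fresh KO libraries. After vehicle culture it measured 1313, 1187 and 1395 CPM in WT and 1132, 1128 and 1339 CPM in KO. All 11 cultured libraries were below the 5 fresh ones. B2m fell by 1.10 ± 0.20 on the log2 scale in KO (adjusted p = 0.00965), and had a log2 fold change of -0.66 ± 0.18 in WT (adjusted p = 0.0956). Averaged over genotypes it was -0.88 ± 0.13 (adjusted p = 0.000954). The ratio of heavy chain counts to B2m counts was 2.28 ± 0.24 in fresh and 1.95 ± 0.25 in vehicle libraries, with overlapping ranges.

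**Figure D2:**
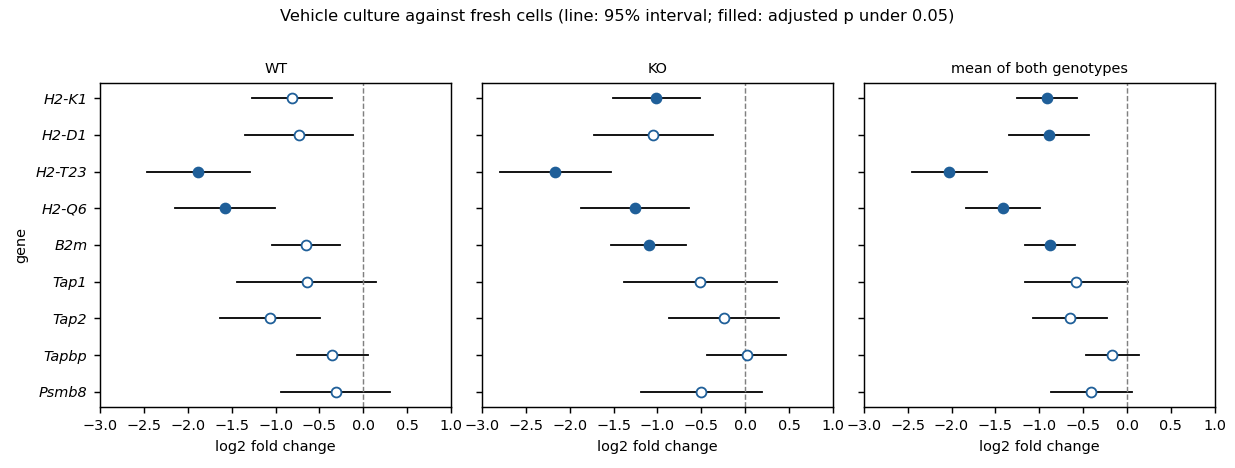
Log2 fold change of vehicle cultures against fresh cells (horizontal axes) for the 9 tested members in WT, in KO and averaged over both genotypes, where points are edgeR estimates, lines 95% intervals and filled points have an adjusted p under 0.05. In the averaged panel the heavy chains and B2m are filled, while Tap1, Tap2, Tapbp and Psmb8 are not.

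Tap1 and Tap2 encode the subunits of the transporter that moves peptides into the endoplasmic reticulum. Tap2 (chr17:34204479-34216321) measured 644, 519 and 522 CPM in fresh WT against 279, 180 and 295 CPM in WT vehicle cultures. In KO it measured 281 and 354 CPM when fresh and 231, 279 and 273 CPM after vehicle culture. The KO fresh values thus lay near those of cultured cells. The log2 fold change was -1.06 ± 0.27 in WT (adjusted p = 0.065), -0.24 ± 0.30 in KO (adjusted p = 0.882) and -0.65 ± 0.20 averaged (adjusted p = 0.0655, or 0.0174 without the sparse library). The difference between genotypes in this response was 0.82 ± 0.40 (95% interval -0.04 to 1.67, unadjusted p = 0.0595, adjusted p = 1), which did not pass the test.

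Tap1 (chr17:34187556-34197225) measured 443, 304 and 488 CPM in fresh WT and 278 and 366 CPM in fresh KO libraries, and 138 to 332 CPM in the 6 vehicle libraries. Its averaged log2 fold change was -0.58 ± 0.28 (adjusted p = 0.257). Tapbp (chr17:33919478-33929290) measured 525, 547 and 539 CPM in fresh WT and 448 and 393 CPM in fresh KO libraries, and 299 to 486 CPM in the vehicle libraries. Its averaged log2 fold change of -0.17 ± 0.14 (95% interval -0.47 to 0.13, adjusted p = 0.591) was the smallest among the members. With both genotypes pooled the fresh and vehicle ranges of both genes overlapped, as they did in KO alone. In WT alone all vehicle libraries lay below all fresh ones for both genes.

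Psmb8 (chr17:34198195-34201454) encodes the immunoproteasome subunit that replaces the constitutive subunit encoded by Psmb5. It measured 665, 439 and 486 CPM in fresh WT and 567 and 464 CPM in fresh KO libraries. Vehicle cultures gave 408, 258 and 525 CPM in WT and 367, 344 and 369 CPM in KO. The averaged log2 fold change was -0.41 ± 0.22 (adjusted p = 0.326). Psmb5 measured 94.6 ± 36.2 CPM in fresh and 141 ± 26.9 CPM in vehicle libraries, with a log2 fold change of 0.59 (adjusted p = 0.076). The ratio of Psmb8 to Psmb5 counts was 6.34 to 7.97 in fresh WT against 1.97 to 4.13 in WT vehicle libraries, and 3.65 to 4.76 in fresh KO against 2.12 to 2.31 in KO vehicle libraries. The ratio did not overlap between conditions within either genotype, but its ranges overlapped with both genotypes pooled. Of single genes tested, 14.8% in WT and 20.3% in KO had vehicle below fresh without overlap. No such share was computed for ratios. Neither gene passed the test alone with all libraries.

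Promoter sequences are shown for the 5 members that fell and for Tapbp, the member with the smallest difference, so that the letters of the boxes named above can be read beside these values. Each is the 200 bases before an annotated RefSeq start in GRCm38.p6, read 5′ to 3′ on the gene's strand. Capitals mark an IRF core (AANNGAAA), the kappa B palindrome (GGGGATTCCCC), a Y box (CCAAT) and a CRE-like core (TGACG), searched on both strands. The windows are chr17:34000348-34000547 (minus strand) for H2-K1, chr17:35262894-35263093 (plus) for H2-D1, chr17:36032702-36032901 (minus) for H2-T23, chr17:35424650-35424849 (plus) for H2-Q6, chr2:122147487-122147686 (plus) for B2m and chr17:33919278-33919477 (plus) for Tapbp.
H2-K1: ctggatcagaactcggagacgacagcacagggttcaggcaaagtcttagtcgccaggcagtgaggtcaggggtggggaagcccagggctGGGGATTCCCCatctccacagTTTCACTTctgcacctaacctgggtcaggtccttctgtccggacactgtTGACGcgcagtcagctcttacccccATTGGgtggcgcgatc
H2-D1: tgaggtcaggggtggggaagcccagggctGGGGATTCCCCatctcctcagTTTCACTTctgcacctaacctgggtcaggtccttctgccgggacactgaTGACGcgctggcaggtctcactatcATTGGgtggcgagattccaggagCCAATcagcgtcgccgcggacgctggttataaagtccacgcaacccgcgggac
H2-Q6: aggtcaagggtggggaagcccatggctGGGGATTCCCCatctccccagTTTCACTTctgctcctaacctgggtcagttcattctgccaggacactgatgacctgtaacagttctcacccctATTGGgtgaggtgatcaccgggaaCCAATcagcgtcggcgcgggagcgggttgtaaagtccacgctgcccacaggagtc
H2-T23: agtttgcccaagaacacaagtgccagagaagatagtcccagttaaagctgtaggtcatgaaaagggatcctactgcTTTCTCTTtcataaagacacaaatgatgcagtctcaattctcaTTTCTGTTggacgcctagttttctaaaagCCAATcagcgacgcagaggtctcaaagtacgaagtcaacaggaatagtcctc
B2m: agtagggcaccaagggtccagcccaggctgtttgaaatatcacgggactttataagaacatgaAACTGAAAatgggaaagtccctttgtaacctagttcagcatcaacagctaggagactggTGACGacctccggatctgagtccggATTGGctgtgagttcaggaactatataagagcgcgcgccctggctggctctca
Tapbp: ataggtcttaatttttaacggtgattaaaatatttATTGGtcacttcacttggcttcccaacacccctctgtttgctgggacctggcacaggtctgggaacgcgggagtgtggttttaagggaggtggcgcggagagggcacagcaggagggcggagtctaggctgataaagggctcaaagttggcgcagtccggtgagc

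The H2-K1, H2-D1 and H2-Q6 windows each hold the kappa B palindrome, found in 10 of 32851 RefSeq promoters (0.0304%, in the 250 bases before the start), followed by an IRF core. In these promoters, and in that of H2-Q7, the IRF core is part of the longer element AGTTTCACTTCT, which 9 promoters hold. The letters of the palindrome and of the longer element were taken from the H2-K1 promoter, so their presence there was set in advance. The H2-D1 and H2-Q6 windows read nearly the same as that of H2-K1 around both elements, so they are not separate finds. The share of 0.0304% is thus no measure of rarity for these genes. H2-K1 has 2 listed starts, and both enter these promoter counts. H2-T23 and B2m have neither the palindrome nor that element, but hold an IRF core, present in 21.3% of all promoters, and a Y box, present in 33.8%. The Tapbp promoter holds Y boxes, and no AANNGAAA within 250 bases of the start. Of the 9 members with a promoter entry, 6 hold the IRF core, 8 the Y box and 5 the CRE-like core, which 17.8% of all promoters hold. H2-T23, which had the largest fall, holds 2 IRF cores and 1 Y box, and no CRE-like core within this window. Among members whose windows are not printed, Tap1 and Psmb8 hold no IRF core, while H2-Q7, which had no counts, does. The printed windows were chosen by the culture result, and a link of these letters to the culture change was not tested. A match of letters is no measured binding site.

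The other genes of the pathway were read from fixed lists, in the same averaged comparison of vehicle with fresh cells. There 2.3% of all tested genes were called lower with all libraries, and 4.23% without the sparse library. Of 17 further class I genes tested, all had negative log2 fold changes, with a median of -1.30 (-1.19 with genes at 0 in a whole group set to the detection limit), and 1 fell (2 without the sparse library). It was H2-M3, which presents formylated peptides, at 77.0 ± 14.3 CPM in fresh and 18.2 ± 9.9 CPM in vehicle libraries (log2 fold change -2.03 ± 0.49, adjusted p = 0.0199). Most of this list was low: its most abundant genes besides H2-M3 were Cd1d1, a lipid-presenting relative, and Fcgrt, the neonatal Fc receptor.

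The 16 partners in peptide processing and loading moved in different directions, with a median of 0.46. Of them 4 rose, 3 of these being chaperones of the endoplasmic reticulum. Canx, which holds newly made heavy chains, went from 323 ± 77.8 to 509 ± 61.8 CPM (log2 fold change 0.74, adjusted p = 0.0108). Pdia3, a disulfide isomerase of the loading complex, went from 585 ± 55.4 to 844 ± 66.8 CPM (0.61, adjusted p = 0.0181), and Hspa5, a general chaperone, from 597 ± 60.6 to 920.5 ± 211 CPM (0.72, adjusted p = 0.0325). The share of all genes called higher was 4.18%. Calr, a chaperone of the loading complex, had a log2 fold change of 0.55 (adjusted p = 0.0859). Psme3, an activator of nuclear proteasomes, also rose (1.12, adjusted p = 0.011).

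Uba7, the enzyme that activates the ubiquitin-like protein ISG15, was the 1 partner that fell, from 584.5 ± 106 to 159 ± 41.3 CPM (log2 fold change -1.82 ± 0.20, adjusted p = 5.18e-05). It fell in WT alone (-1.75) and in KO alone (-1.89) too. Without the sparse library 5 partners rose and 2 fell, against 6.14% of all tested genes called higher and 4.23% lower. Psmb9 and Psmb10, the other immunoproteasome subunits, named after their values were seen, had log2 fold changes of -0.52 (adjusted p = 0.141) and -0.41 (adjusted p = 0.886). The constitutive subunit genes Psmb5, Psmb6 and Psmb7 had a median of 0.35, and none passed the test with all libraries. Without the sparse library Psmb5 was called higher (0.60, adjusted p = 0.0477).

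Among 18 regulators of class I transcription 1 fell, Irf9, the DNA-binding part of the complex downstream of type I interferon, from 105.5 ± 31.6 to 34.3 ± 9.66 CPM (log2 fold change -1.54 ± 0.33, adjusted p = 0.00906). The list median was -0.24. Of all tested genes, 2.3% were called lower and 4.18% higher. Nlrc5, the class I transactivator, had a log2 fold change of -0.29 (adjusted p = 0.848) and Irf1 of -0.65 (adjusted p = 0.191); both were named after their values were seen. Of 11 interferon receptors and signal brakes, Socs3, an inhibitor of cytokine signalling through JAK kinases, rose from 30.2 ± 13.5 to 181 ± 38.7 CPM (2.60 ± 0.31, adjusted p = 0.000113). Usp18, which removes ISG15 and dampens the interferon receptor, fell (-2.30 ± 0.58, adjusted p = 0.0266).

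Of 32 interferon-stimulated genes 31 had negative log2 fold changes with a median of -1.29, and 4 fell: Ifi27, Igtp, Irgm1 and Gbp7, the last 3 coding for interferon-induced GTPases. Their log2 fold changes were -1.63, -1.30, -1.18 and -1.11. Without the sparse library 10 of the 32 fell. The share of all tested genes called lower was 2.3%, and 4.23% without that library. Of 11 class II genes and partners tested, 10 were below 0 (median -1.96), and H2-DMa, which helps to load class II molecules, fell from 146 ± 32.2 to 37.1 ± 18.1 CPM (adjusted p = 0.0284); without the sparse library 4 of them fell.

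**Figure D3:**
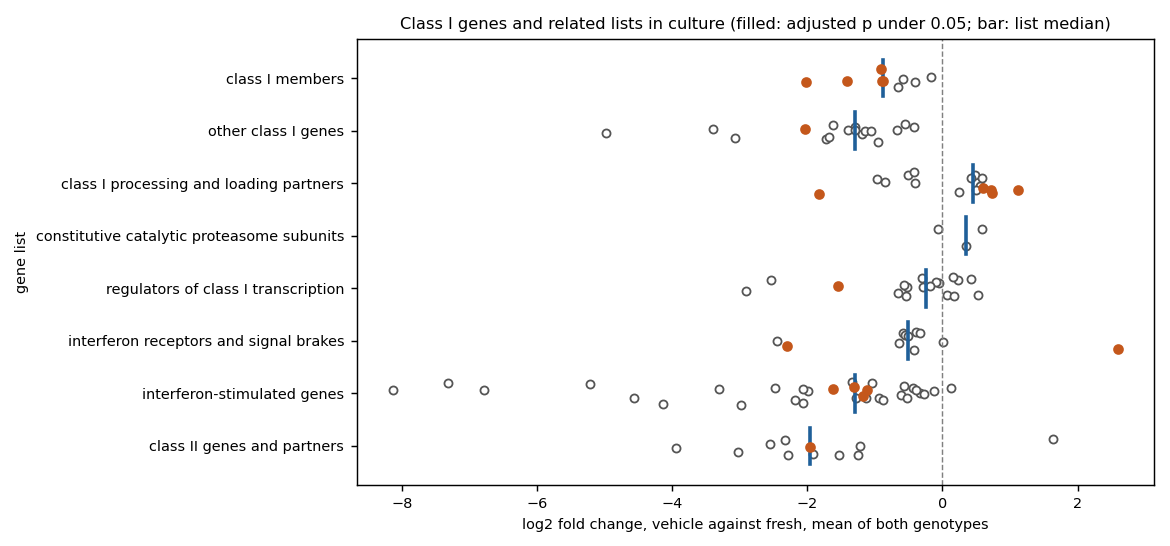
Log2 fold change of vehicle cultures against fresh cells, averaged over genotypes (horizontal axis), for each tested gene of the class I members and of 7 related lists (vertical axis), with filled points for an adjusted p under 0.05 and a blue bar at the list median. The member median is -0.88 and that of the processing and loading partners 0.46.

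Other markers moved with culture as well. In the averaged comparison 2.3% of all tested genes were called lower (4.23% without the sparse library) and 4.18% higher. The summed granulocyte and monocyte markers, mainly Lyz2 and Prtn3, measured 764 to 1321 CPM in fresh and 123 to 398 CPM in vehicle libraries, and 2 of the 8 tested markers were called lower (4 without the sparse library). Those of T and natural killer cells, mainly Nkg7, measured 41.0 to 103 CPM and 10.2 to 21.6 CPM, with 1 of 3 called lower. The erythroid markers measured 50.1 to 199.9 CPM in fresh and 4.30 to 50.9 CPM in vehicle libraries, with a median of -2.97, and 0 of 3 tested were called by edgeR (1 lower without the sparse library). The megakaryocyte and platelet markers measured 1022 to 1629 CPM in fresh and 606.9 to 1243 CPM in vehicle libraries, with 2 of 6 called lower. Among the 12 HSC markers 2 were called higher and 2 lower (5 lower without the sparse library), with a median of -0.99, close to that of the class I members. The part of these changes in the class I result was not tested.

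PSGL-1 against vehicle changed no class I member. By edgeR's quasi-likelihood test 0 of 9 members passed in WT, in KO or averaged (0 at an unadjusted p under 0.05 in each, 0 adjusted in DESeq2 and in limma), and 0% of all tested genes were called by edgeR. Over all genes DESeq2 called 229 in WT, 41 in KO and 121 in the average, and limma called 0 in each. Averaged log2 fold changes ran from -0.33 ± 0.28 for Tap1 to 0.17 ± 0.20 for Tap2. Single WT PSGL-1 libraries moved these values: without replicate 2 the average was -0.76 for Tap1 and -0.55 for Psmb8, and without the sparse replicate 1 it was -0.07 and -0.009. The 95% intervals for the averaged effect were -0.29 to 0.29 for B2m, -0.24 to 0.44 for H2-K1 and -0.29 to 0.56 for H2-T23. An averaged change of B2m beyond 0.29 on the log2 scale in either direction thus lay outside its interval. For Tap1 the averaged interval reached from -0.92 to 0.27. The average weighs WT and KO equally and does not bound a change in 1 genotype. Taken over the 9 tested members, the 95% intervals spanned -1.19 to 1.10 in WT alone and -1.13 to 0.63 in KO alone. The PSGL-1 and culture comparisons share the vehicle libraries. Without WT PSGL-1 replicate 2, where the sparse library alone stands for its group, Tap2 alone was called higher with PSGL-1 in WT (log2 fold change 0.88, adjusted p = 0.0461), assuming that this library varies like the other groups. In that setting 2955 of 15020 tested genes were called for PSGL-1 in WT (19.7%), 2.68% higher and 17% lower.

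KO against WT changed no class I member either. By the same test 0 of 9 members passed in fresh, vehicle or PSGL-1 libraries or averaged over the 3 conditions (0 adjusted in DESeq2 and in limma). At an unadjusted p under 0.05 there were 1 (Tap2) in fresh cells, 0 in vehicle, 0 in PSGL-1 cultures and 3 in the average. Of all tested genes, edgeR called 0.00708% in fresh cells, 0.00708% in vehicle and 0.00708% in PSGL-1 cultures, and 0.0354% in the average. In the same order DESeq2 called 0.666%, 0.786%, 1.73% and 1.68%, and limma 0.0496%, 0.0212%, 0% and 0.0354%. The 3 members with an edgeR unadjusted p under 0.05 in the average were Tap2 at -0.44 ± 0.17, H2-Q6 at -0.43 ± 0.17 and H2-D1 at -0.40 ± 0.18 (adjusted p = 0.659, 0.661 and 0.712). The averaged effect was best bounded for B2m (95% interval -0.28 to 0.20) and Tapbp (-0.36 to 0.14). In fresh cells Tap2 was 519 to 644 CPM in WT and 281 to 354 CPM in KO (log2 fold change -0.78, edgeR unadjusted p = 0.0213, adjusted p = 1). KO fresh libraries lay below all WT fresh ones for 3 of 9 members, Tap2, H2-Q6 and Tapbp (9.95% of all tested genes). Without WT PSGL-1 replicate 2, Tap2 was called lower in KO in the average (-0.58, adjusted p = 0.0126) and within PSGL-1 cultures (-0.98, adjusted p = 0.026). In that setting, with the sparse library alone in its group, 15.1% of all tested genes were called in the average (1.26% lower) and 19.8% within PSGL-1 cultures (2.68% lower).

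**Figure D4:**
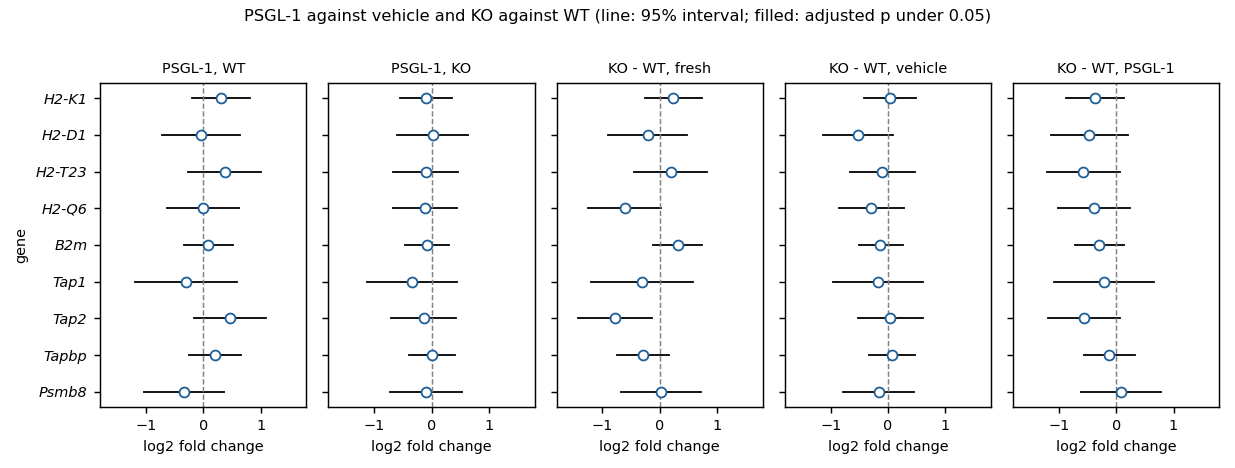
Log2 fold change (horizontal axes) of the 9 tested members for PSGL-1 against vehicle in WT and KO and for KO against WT in each of the 3 conditions, where points are edgeR estimates and lines 95% intervals. No point is filled, since no adjusted p was under 0.05, and Tap2 in fresh cells has the lowest value at -0.78.

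The labels also number the libraries, and the numbers 1 to 6, 7 to 12 and 13 to 18 each run through the conditions; the labels do not say what a run of 6 numbers shares. Within these runs the culture difference kept its direction. In each of the 5 pairs of a vehicle and a fresh library of 1 genotype, H2-K1, H2-D1, H2-T23, H2-Q6, B2m, Tap1 and Tap2 were lower in the vehicle library, that is 7 of 9 members against 13.6% of all tested genes. The log2 ratio ran from -2.24 to -1.90 for H2-T23 and from -1.23 to -0.62 for H2-D1, but reached -0.14 for Tap1 and -0.009 for Tap2. Tapbp and Psmb8 were lower in 4 of 5 pairs.

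The ratio of H2-D1 to H2-K1 counts differed between these runs in WT and hardly between conditions. WT libraries numbered 1 to 6 gave 0.739 fresh and 0.709 with vehicle. Those numbered 7 to 12 gave 0.266 fresh, 0.294 with vehicle and 0.269 with PSGL-1. Those numbered 13 to 18 gave 0.440 fresh, 0.497 with vehicle and 0.504 with PSGL-1. The 3 runs did not overlap in WT, whereas all 8 KO libraries lay between 0.308 and 0.387. Psmb8 was also lowest in the WT library numbered 7 to 12 in each condition, at 439, 258 and 208 CPM, the last being the sparse library. It did not keep the order of the other runs. Numbers 1 to 6 and 13 to 18 gave 665 and 486 CPM fresh, but 408 and 525 CPM with vehicle. These patterns were seen in the data and not tested.

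**Figure D5:**
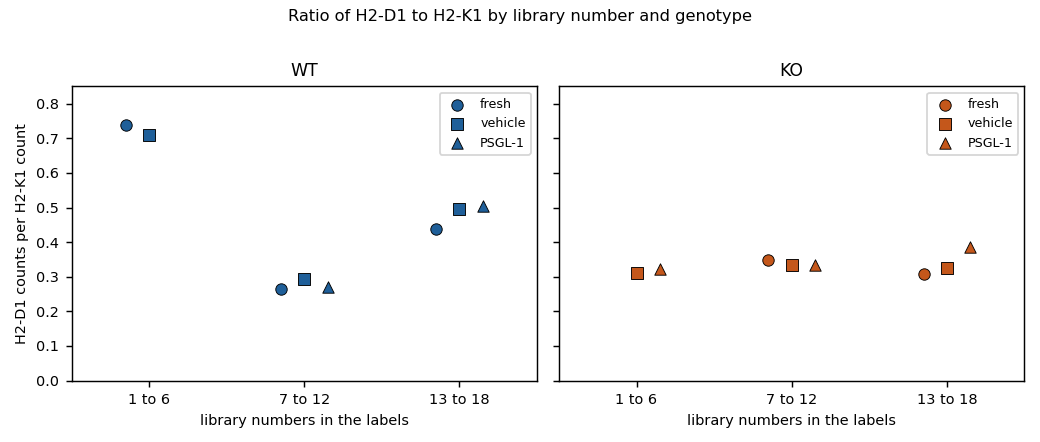
Counts of H2-D1 per count of H2-K1 (vertical axes, from 0) by the library numbers of the labels (horizontal axes) in WT and KO, with circles for fresh, squares for vehicle and triangles for PSGL-1 libraries. WT libraries fall at 3 levels by number, from 0.266 to 0.739, while KO libraries sit between 0.308 and 0.387.

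Across the 15 libraries other than the sparse one, the members followed each other to different degrees. As a description, with libraries that share the fresh and cultured conditions, Pearson's r of a member with the mean of the others was highest for H2-T23 (0.931) and B2m (0.90) and lowest for Tapbp (0.446). The closest pair was H2-T23 and B2m (r = 0.95), then H2-K1 and H2-T23 (0.943) and H2-D1 and Psmb8 (0.911), and the least alike were Tapbp and Psmb8 (0.152). Outside the set, the 8 genes with the most similar pattern to the members' mean were Tmem44 (r = 0.951, or 0.817 with all 16 libraries), Tspan32 (0.93), Rpl3 (0.927), Ramp1 (0.923), Lmo2 (0.923), Tgtp2 (0.919), Gmfg (0.918) and Zfpm1 (0.917). With all 16 libraries r was 0.831 for Rpl3 and between 0.906 and 0.92 for the genes other than Tmem44 and Rpl3. Tmem44 was low, with a mean of 10.5 CPM. It was not called in the averaged culture comparison (log2 fold change -4.65 ± 1.65, edgeR adjusted p = 0.12). Lmo2 and Zfpm1 encode transcription cofactors of blood cell development, Rpl3 a ribosomal protein and Tgtp2 an interferon-induced GTPase.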

How the data were processed

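The deposited table held raw read counts per gene symbol, 1 column per library. The libraries came from a SMART kit for very small RNA inputs, per the labels' protocols. Per the submitters' processing notes, the tools and build were STAR 2.7.5c, featureCounts, MultiQC 1.10, DESeq2 and mm10. No source used here gives the annotation, strand setting or handling of reads with several matches, so reads of near-identical H2 copies may have been split or lost.

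Levels are CPM, counts scaled to the library total, with the SD over libraries. Of 25239 genes, 14124 passed edgeR's filterByExpr and were tested in 1 quasi-likelihood model of all 16 libraries (edgeR 4.0.16, R 4.3.3) with TMM scaling and 1 mean per group, over 11 comparisons. A gene was called changed at 0.05 after Benjamini-Hochberg adjustment over the tested genes. The standard error is the size of the log2 fold change divided by the root of F. Whether replicates were separate mice is not stated, so the p-values reflect differences among these libraries and may describe technical spread alone; no pair of replicates agreed within sampling noise. Alternatives were DESeq2 1.42.0, limma 3.58.1 (voom with quality weights), RLE scaling, no filter, a filter of 10 CPM in 2 libraries, the compared groups alone, each library left out, and replicate blocks. Members and lists were chosen with earlier results of these data known. Besides the members, the text names up to 4 genes per list that passed the test by smallest adjusted p, up to 2 more by highest mean CPM, and the 8 tested genes with the highest Pearson r to the members' mean log2 CPM among those with a mean of at least 10 CPM. Gene positions and promoters are RefSeq's for GRCm38.p6, the assembly also called mm10. Exon lengths and shared stretches came from GENCODE M21 transcripts. On simulated counts of 13689 genes, the averaged culture comparison recovered 12% of 2-fold, 34% of 4-fold, 62% of 8-fold and 76% of 16-fold changes. The changed genes were drawn at random from expressed genes, so these rates do not describe the class I members. Standard errors of the members in that comparison ran from 0.134 to 0.276.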

Additional observations from a re-analysis of the deposited data

How the results depend on the processing

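Of 1000 values of 56 results under other settings, 909 kept their direction and their side of the threshold, where a count of called genes was taken as kept within 1.5 times its value. The averaged culture count of 5 members lay between 4 and 6 in every setting run. The share of all genes called lower ran from 1.08% without KO fresh replicate 1 to 7.29% with limma. The WT culture count of 2 was 5 with DESeq2 (2.66% of all genes called lower), 5 with limma (2.1%) and 4 with no filter (0.463%). It lay between 2 and 4 when 1 library was left out (0.157 to 1.04%), with 4 without WT PSGL-1 replicate 1 (1.04%). The KO culture count of 4 lay between 1 and 4 when 1 library was left out (0.14 to 1.27% of all genes called lower). Members called for PSGL-1 in WT, and for KO against WT within PSGL-1 cultures and in the average, ranged from 0 to 1 when 1 library was left out; the 1 was Tap2 without WT PSGL-1 replicate 2, when 19.7%, 19.8% and 15.1% of all genes were called. Over all genes, the averaged culture comparison called 915 (590 higher), against 1780 (950 higher) with DESeq2, 1917 (888 higher) with limma, 1455 (806 higher) with the compared groups alone, and from 552 to 1566 with 1 library left out.

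Values near 0 changed sign. The log2 fold change of Tapbp in KO culture, 0.02, was -0.061 with DESeq2, -0.006 with limma, -0.061 with RLE scaling, -0.041 with no filter, -0.007 with the stricter filter, and -0.11 to 0.18 with 1 library left out. For PSGL-1 in the average, B2m was -0.084 with limma. With 1 library left out the PSGL-1 averages ran from -0.002 to 0.22 for H2-K1, -0.20 to 0.12 for H2-D1, -0.084 to 0.28 for H2-T23, -0.26 to 0.081 for H2-Q6, -0.11 to 0.071 for B2m and -0.16 to 0.37 for Tap2. The KO against WT averages ran from -0.099 to 0.042 for H2-K1, -0.11 to 0.016 for B2m, -0.41 to 0.051 for Tap1 and -0.17 to 0.19 for Psmb8. The cause of these shifts was not tested.

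Over all genes, the replicate numbers did not meet the criterion for pairing, every pair over 0.1: of 36 pairs with the same title number, 1 had a correlation of deviations over 0.1 (median 0.0035), as had 1 of 36 pairs by runs of library numbers (median 0.0065). By title number, 9 of 16 libraries correlated best with their own number, and by runs 11 of 16. The H2-D1 to H2-K1 ratio in WT did follow the runs. With the runs as a replicate block the KO culture count was 2, with 61 of 14124 genes called lower. In that setting B2m was -0.023 for PSGL-1 and Psmb8 was 0.028 for genotype in the averages. With title numbers as a replicate block, Tapbp was -0.028 in KO culture and H2-D1 0.081 for PSGL-1 in the average, and B2m was called lower in WT culture (adjusted p = 0.0346). For H2-Q7, a count of 0 allows up to 0.238 CPM by counting error alone; reads lost to close copies are not covered.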
